A study of Mus musculus with 16 samples.

Results

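Messenger RNA of 10 heat shock protein and co-chaperone genes was followed in mouse primary cortical neuron cultures after oxygen-glucose deprivation (OGD), with and without the antidepressant tianeptine (TIA). The genes were chosen by symbol: the small heat shock proteins *Hspb1*, *Hspb8* and *Cryab*, the HSP70 proteins *Hspa1a*, *Hspa1b* and *Hspa8*, the HSP110 protein *Hsph1*, the cytosolic HSP90 *Hsp90aa1*, and the co-chaperones *Bag3* and *Dnajb1*. All 10 were found, with 44 isoforms, among 53679 gene symbols and 135202 isoforms. The value of a gene is the sum over its isoforms of FPKM, the fragments mapped to a kilobase of sequence, scaled to the size of the library.

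The cultures were prepared from the cortex of wild-type embryos at embryonic day 15 and received 10 μM TIA or vehicle on day in vitro 8. After 24 h they underwent 3-h OGD or sham, and RNA was taken at 6 h of reoxygenation. There were 16 cultures, 4 in each of 4 groups. Sham cultures were CONTROL-VEH (1 to 4) with vehicle and CONTROL-TIA (5 to 8) with the drug, and deprived cultures were OGD-VEH (9 to 12) and OGD-TIA (13 to 16). The labels call the vehicle groups untreated, and OGD is a dish model that lacks blood flow and most cells of the vessel wall. The 4 cultures of a group are biological replicates by the study's account, but the labels do not say which came from the same preparation.

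Heat shock proteins are molecular chaperones, which keep other proteins from misfolding and clumping. The small heat shock proteins hold unfolded proteins without using ATP, while HSP70 and HSP90 refold or mature them in cycles driven by ATP. J-domain proteins such as DNAJB1 hand clients to HSP70 and switch on its ATPase, and nucleotide exchange factors such as HSPH1 and BAG3 make HSP70 release ADP. Many of these genes are controlled by the transcription factor HSF1, which binds heat shock elements, runs of the unit GAA and its reverse complement TTC. In the brain, the small heat shock proteins are best known from glial cells and from injured tissue, whereas *Hspa8* and *Hsp90aa1* are abundant in neurons at rest.

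Stretches of the promoter windows are shown because they hold the letters of a heat shock element beside the start of genes that rose and of genes that did not. RefSeq windows on GRCm38.p6, from 250 bases before to 50 bases after each start, were found for 7 of the 10 genes. No window was found for *Hspa8*, *Cryab* and *Hsp90aa1*. The 2-unit motif GAANNTTC, which reads the same on both strands, was found for 6 of these 7 genes. Counted by window, as a gene can have more than 1, it was in 7 of their 9, beside 7.86% of 32851 windows of the same length. The 3-unit motif, with alternating GAA and TTC units each 2 bases apart on either strand, contains the 2-unit motif. It was in 0.603% of all windows and in 2 of the 9, both of *Hsph1*. *Dnajb1* had neither. Capitals mark the units of the motif, and each sequence is written 5′ to 3′ on the strand of its gene.
Hspb1: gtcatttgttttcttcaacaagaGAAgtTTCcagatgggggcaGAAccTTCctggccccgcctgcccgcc
Hspb8: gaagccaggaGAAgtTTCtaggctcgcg
Bag3: aagttctctggatgggaccaGAAgtTTC
Hspa1a: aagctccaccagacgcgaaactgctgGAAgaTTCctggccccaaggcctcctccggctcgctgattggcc
Hspa1b: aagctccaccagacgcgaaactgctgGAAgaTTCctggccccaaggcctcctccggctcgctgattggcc
Hsph1: taaaatgctgcagaTTCtgGAAagTTCt

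The *Hspb1* stretch lies at chr5:135887779-135887848 on the plus strand, upstream of the start, and holds 2 matches, at -117 and -97. The *Hspb8* stretch is at chr5:116422845-116422872 on the minus strand and spans the start. The *Bag3* stretch is at chr7:128523605-128523632 on the plus strand, and the *Hsph1* stretch at chr5:149636287-149636314 on the minus strand, both within the first 50 transcribed bases. The *Hspa1a* stretch is at chr17:34972217-34972286 and the *Hspa1b* stretch at chr17:34959299-34959368, both on the minus strand and identical to each other. Over their whole windows these neighbouring genes share 296 of 300 bases. A match describes the letters only; binding was not measured.

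The genes differed widely in level. In CONTROL-VEH, *Hspa8*, the constitutive HSP70, had 6210 ± 369.5 FPKM (SD, n = 4) and ranked 8 among all gene symbols. *Hsp90aa1* followed with 2300 ± 195 FPKM and *Hsph1* with 286 ± 32.3 FPKM. *Dnajb1* had 15.7 ± 1.99 FPKM. The stress-inducible HSP70 genes were far lower, *Hspa1b* at 6.32 ± 2.75 and *Hspa1a* at 4.69 ± 1.64 FPKM. *Hspb8* had 3.54 ± 0.741, *Cryab* 2.32 ± 0.832, *Bag3* 0.838 ± 0.0604 and *Hspb1* 0.519 ± 0.296 FPKM. Neighbours in the order from *Hspa1b* down to *Cryab* overlapped between cultures. *Bag3* and *Hspb1* ranked 14854 and 16079, with every *Bag3* value above every *Hspb1* value.

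These sums depend on how isoforms were resolved from 50-base reads. Of the *Hspa8* sum, 65.3% was given to processed transcripts, 25.6% to transcripts with a retained intron and 9.1% to protein-coding isoforms. A single short isoform of 357 bases carried a mean of 2767 FPKM. Retained-intron isoforms took 42.5% of *Hsp90aa1*, 27.8% of *Hsph1* and 22.8% of *Cryab*, while *Hspb1*, *Bag3*, *Dnajb1*, *Hspa1a* and *Hspa1b* were given to coding isoforms alone. Weighted by isoform length, *Hspa8* in CONTROL-VEH came to 2833 FPKM and *Hsp90aa1* to 1650 FPKM. Near-identical copies add a second limit: 58.8% of the 50-base words of *Hspa1a* transcripts also occur in *Hspa1b*, 48.8% of those of *Hspb1* in the pseudogene *Hsp25-ps1*, 41.8% of those of *Hsp90aa1* in *Gm12346* and 34.6% of those of *Hspa8* in *Gm15459*. *Bag3*, *Hspb8*, *Cryab* and *Hsph1* share none.

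Estimated depth was 20.2 to 25.6 M reads per culture, against 18 to 23 M aligned reads in the labels, and 9 cultures were estimated above that range. The FPKM are read as scaled between libraries (TMM), so this estimate is of a scaled depth and not a count of reads. At the estimated depth 1 read on a kilobase is worth 0.0391 to 0.0495 FPKM. By this estimate, about 2 to 120 reads lay behind the *Hspb1* values, 29 to 255 behind *Cryab* and 38 to 312 behind *Bag3*, against at least 29067 behind *Hsp90aa1*. All 10 genes passed the filter of a mean of 0.5 FPKM in every comparison.

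Cell type marker RNA was compared between groups. The summed FPKM of 12 neuron markers was 3075 to 3634 in CONTROL-VEH, 3077 to 3237 in CONTROL-TIA, 1303 to 2747 in OGD-VEH and 1782 to 2972 in OGD-TIA. That of 6 progenitor markers, which immature glia also express, was 493 to 624, 469 to 656, 907 to 2968 and 829 to 1811 in the same order. Most of this sum was *Vim*: its mean over the OGD cultures was 1290 FPKM, and the next highest, *Sox2*, had 84.5 FPKM. For 8 markers of the oligodendrocyte lineage the ranges were 177 to 213, 159 to 194, 244 to 676 and 225 to 438. For 8 astrocyte markers they were 753 to 1614, 657 to 873, 1011 to 2532 and 752 to 1934. Microglia markers summed to at most 3.13 FPKM in any culture, with 7 of 8 under a mean of 0.5 FPKM, and 10 vessel and fibroblast markers to 8.33 to 18.5 FPKM. OGD-VEH culture 12 had the lowest neuron sum (1303 FPKM), and the highest progenitor and astrocyte sums, while OGD-TIA culture 16 had the second lowest neuron sum (1782 FPKM). In bulk cultures, fewer cells of a type and less RNA per cell cannot be told apart.

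The first comparison asked how OGD changed these genes in vehicle cultures. A gene was called where the adjusted p of limma (padj) did not exceed 0.05 and the log2 fold change was 1 or more in size. *Hspb1*, *Cryab*, *Bag3* and *Hspb8* rose in OGD-VEH over CONTROL-VEH, by 3.64 to 7.42 times in mean FPKM, and none of the other 6 genes was called. That is 4 of 10, against 4.09% of 16346 genes called in either direction, 2.4% up and 1.68% down. At an unadjusted p under 0.05, 4 of the 10 were above 0 and 3 below, beside 35% of all genes. The median log2 fold change of the 10 was 0.05, beside 0.10 over all genes tested.

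*Hspb1* encodes HSP27, a small heat shock protein that forms large oligomers and also stabilises actin. In CONTROL-VEH cultures 1 to 4 it had 0.637, 0.712, 0.651 and 0.078 FPKM, and in OGD-VEH cultures 9 to 12 it had 2.30, 4.62, 2.41 and 6.09 FPKM. Every OGD-VEH culture lay above every CONTROL-VEH culture. The log2 fold change was 2.78 (SE 0.55, limma padj = 0.0347). Culture 4, at about 2 reads, was far below its group. Without it the log2 fold change was 2.25 (limma padj = 0.0611). The pseudogene *Hsp25-ps1* had 0.236 ± 0.252 FPKM in the vehicle controls and 0.902 ± 1.27 FPKM after OGD (SD, n = 4), so some reads of either could belong to the other.

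*Cryab* encodes αB-crystallin, a small heat shock protein of lens, muscle and glia. The CONTROL-VEH cultures had 2.41, 1.62, 1.80 and 3.46 FPKM, and the OGD-VEH cultures 4.05, 9.56, 8.51 and 15.7 FPKM. The groups did not overlap, with the least gap between cultures 4 and 9. Its log2 fold change was 1.89 (SE 0.41, limma padj = 0.0389). Over the protein-coding isoforms it was 1.58.

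*Hspb8* encodes HSP22, which works with BAG3 to send misfolded proteins to autophagy. Its FPKM were 4.61, 2.99, 3.45 and 3.11 in the CONTROL-VEH cultures, against 5.51, 11.47, 9.44 and 25.2 in the OGD-VEH cultures. Culture 9 was just above the highest control and culture 12 well above the rest. This gave a log2 fold change of 1.64 (SE 0.41, limma padj = 0.0470).

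*Bag3* encodes the BAG-domain co-chaperone that joins HSP70 to HSPB8. It varied little in CONTROL-VEH, at 0.813, 0.800, 0.810 and 0.928 FPKM, while the OGD-VEH cultures had 1.24, 3.48, 3.21 and 5.44 FPKM. Here too the groups were apart and culture 9 was nearest to the controls. Its log2 fold change was 1.71 (SE 0.40, limma padj = 0.0437). For each of these 4 genes the two-sided exact permutation p over 70 assignments was 0.0286, the smallest it can be.

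**Figure D1:**
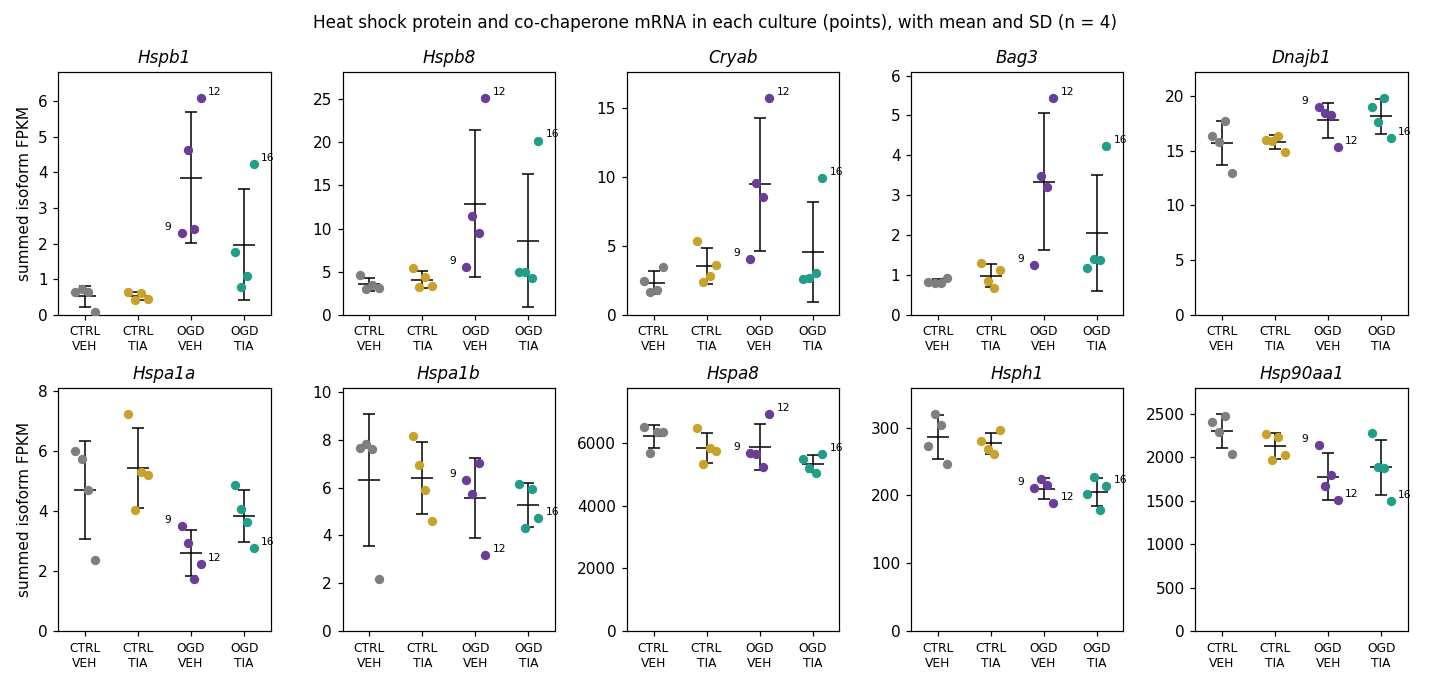
Summed isoform FPKM (y axis, linear from 0, a scale per gene) of the 10 genes in the 4 groups (x axis). Points are cultures, bars are mean and SD (n = 4), and numbers name cultures 9, 12 and 16; cultures 12 and 16 are the highest of their groups for *Hspb1*, *Hspb8*, *Cryab* and *Bag3*, and all OGD cultures lie below all controls for *Hsph1*.

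The 4 calls rested on padj between 0.0347 and 0.0470 and were lost when any culture but OGD-VEH 9 was left out. In those 7 fits 0 of the 10 genes were called, with padj up to 0.123, and between 1 and 43 of all genes were called up. Without OGD-VEH 9 all 4 were called, with padj of 0.00248 to 0.0118, and so were 13.4% of all genes. Their log2 fold changes stayed between 1.25 and 2.98 in the 8 fits. In the same comparison cell type markers shifted as well: 3 of 6 progenitor genes (*Vim* 1.74, *Nes* 1.71 and *Hes1* 1.17 on the log2 scale) and 4 of 7 oligodendrocyte lineage genes were called up. All 12 neuron markers had log2 fold changes under 0, with *Syt1* called down, and 7 of 8 astrocyte markers were above 0 with none called. The part of this shift in the rise of *Hspb1*, *Cryab*, *Hspb8* and *Bag3* was not tested.

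The stress-inducible HSP70 genes were not among those that rose. *Hspa1a* stood at 5.99, 5.72, 4.68 and 2.38 FPKM in the CONTROL-VEH cultures, and at 3.502, 2.92, 1.74 and 2.23 FPKM in the OGD-VEH cultures. The groups overlapped through culture 4, the lowest control. For this gene limma gave a log2 fold change of -0.79 with a 95% interval of -1.55 to -0.03 (padj = 0.130).

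*Hspa1b*, a neighbouring gene that encodes a nearly identical protein, stood at 7.67, 7.81, 7.61 and 2.19 FPKM in the CONTROL-VEH cultures, and at 6.31, 5.75, 7.05 and 3.17 FPKM in the OGD-VEH cultures. Culture 4 was again the low control, and culture 12 the low OGD culture. The log2 fold change of -0.08 had an interval of -1.08 to 0.92 (limma padj = 0.913), and it ran from -0.52 to 0.17 as cultures were left out in turn. Since the copies share most of their sequence, their sum was also fitted: it was 11.01 ± 4.34 FPKM in CONTROL-VEH cultures and 8.17 ± 1.91 FPKM in OGD-VEH cultures (SD, n = 4), with a log2 fold change of -0.34 (limma padj = 0.537).

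*Hspa8* encodes HSC70, the HSP70 of unstressed cells, which also strips clathrin from vesicles at synapses. Its level was 6494, 5666, 6332 and 6347 FPKM in the CONTROL-VEH cultures and 5687, 5656, 5237 and 6915 FPKM in the OGD-VEH cultures, with culture 12 the highest of all. The log2 fold change of -0.09 had a narrow interval of -0.28 to 0.11 (limma padj = 0.507). Over its coding isoforms it was -0.36 (limma padj = 0.0904).

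*Hsph1* encodes HSP110, a nucleotide exchange factor and relative of HSP70 with a part in disaggregation. The CONTROL-VEH cultures had 274, 319.9, 304 and 247 FPKM, and the OGD-VEH cultures 211, 225, 216 and 188 FPKM. No culture of OGD-VEH reached the lowest control. At -0.44 (SE 0.11, limma padj = 0.0447) on the log2 scale, it was past the threshold on padj but not that on fold, so it was not called. Weighted by isoform length, it was -0.23 (limma padj = 0.0734) and the groups overlapped.

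*Hsp90aa1* encodes the inducible cytosolic HSP90, which matures kinases and steroid receptors. There were 2407, 2288, 2475 and 2032 FPKM in the CONTROL-VEH cultures, against 2138, 1666, 1796 and 1510.2 FPKM in the OGD-VEH cultures. The groups overlapped only at cultures 4 and 9. Its log2 fold change was -0.38 (SE 0.11, limma padj = 0.0607).

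*Dnajb1* encodes HSP40, the J-domain partner of inducible HSP70. Its FPKM were 16.3, 15.8, 17.7 and 12.96 in the CONTROL-VEH cultures, against 19.02, 18.4, 18.3 and 15.4 in the OGD-VEH cultures. In 3 of 4 OGD-VEH cultures it exceeded every control, and in culture 12 it fell within their range. The log2 fold change of 0.18 had an interval of -0.13 to 0.49 (limma padj = 0.368). By count, 4 of the 10 genes lay above CONTROL-VEH in every culture, beside 12.7% of all genes tested, and 1 lay below, beside 9.95%.

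The second comparison addressed OGD in cultures that had received TIA. In OGD-TIA against CONTROL-TIA, limma called 0 of the 10 genes, and 0% of 16242 genes. The study's own test on read counts did call genes in this comparison at the same thresholds, so 0% is a result of this fit alone. At an unadjusted p under 0.05, 1 of the 10 was above 0 and 1 below, beside 19.5% of all genes in either direction. *Hspb1* had 0.645, 0.418, 0.605 and 0.438 FPKM in CONTROL-TIA cultures 5 to 8, and 1.77, 0.786, 1.09 and 4.24 FPKM in OGD-TIA cultures 13 to 16. All OGD-TIA cultures were above all CONTROL-TIA cultures, with a log2 fold change of 1.47 (SE 0.47, limma padj = 0.174).

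*Bag3* had 1.29, 0.838, 0.670 and 1.13 FPKM in the CONTROL-TIA cultures, and 1.18, 1.41, 1.38 and 4.24 FPKM in OGD-TIA. Its log2 fold change was 0.83 with an interval of -0.10 to 1.76 (limma padj = 0.297). Only culture 16 stood far from the controls, and the same held for *Hspb8* and *Cryab*.

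*Hspb8* stood at 5.41, 3.21, 4.38 and 3.34 FPKM in the CONTROL-TIA cultures, and at 4.99, 4.96, 4.26 and 20.2 FPKM in the OGD-TIA cultures. The log2 fold change was 0.75, with an interval of -0.33 to 1.84. For *Cryab* the CONTROL-TIA cultures had 5.34, 2.41, 2.83 and 3.60 FPKM, and the OGD-TIA cultures 2.61, 2.66, 2.99 and 9.94 FPKM. In 3 of 4 OGD-TIA cultures *Cryab* was inside the range of the controls, and the log2 fold change of 0.16 had an interval of -0.87 to 1.19.

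*Hsph1* was 261 to 297 FPKM in CONTROL-TIA and 178 to 227.2 FPKM in OGD-TIA, again without overlap. Its log2 fold change was -0.44 (SE 0.09, limma padj = 0.108). By count, 1 of the 10 lay wholly above CONTROL-TIA, beside 9.51% of all genes, and 1 wholly below, beside 6.72%. The other 5 genes overlapped, with log2 fold changes of -0.49 for *Hspa1a*, -0.26 for *Hspa1b*, -0.19 for *Hsp90aa1*, -0.13 for *Hspa8* and 0.20 for *Dnajb1*.

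**Figure D2:**
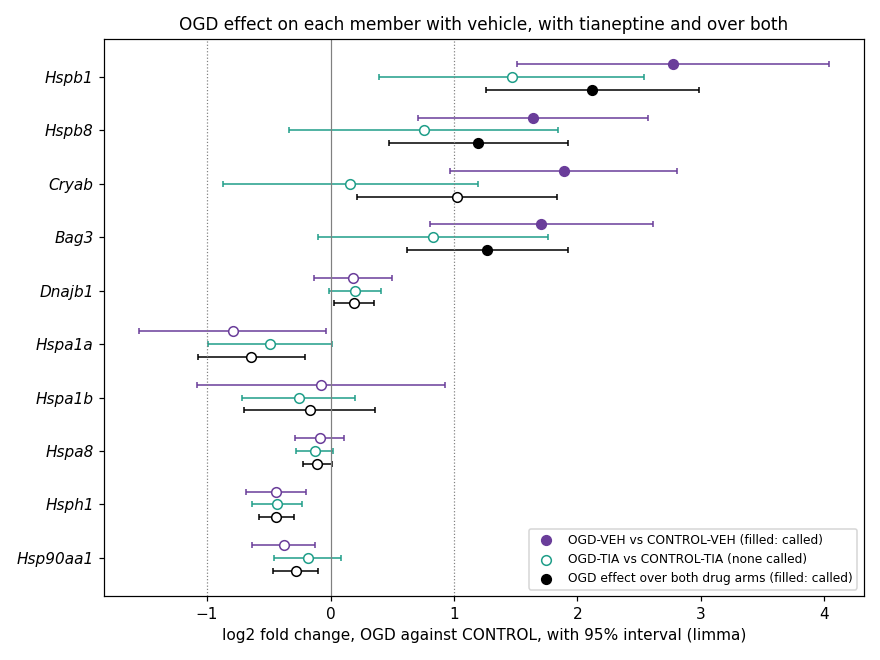
Log2 fold change of OGD against control (x axis, with limma 95% intervals) for each gene (y axis) with vehicle, with TIA and over both drug arms; filled points were called and dotted lines mark the fold threshold. The 4 called genes with vehicle lie at 1.64 to 2.78, and with TIA the same genes lie at 0.16 to 1.47 with none called.

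TIA itself was compared in sham and in OGD cultures. In CONTROL-TIA against CONTROL-VEH, limma called 0 of the 10 genes and 0% of 16170 genes (at an unadjusted p under 0.05, 0 of the 10 and 3.84% of all). Every one of the 10 overlapped between these groups, where 2.06% of all genes did not. The largest log2 difference was that of *Cryab*, 0.59 with an interval of -0.11 to 1.29, and the narrowest interval around 0 was that of *Hspa8*, -0.24 to 0.06. The *Cryab* sum includes a retained-intron isoform with a mean of 0.0688 FPKM in CONTROL-VEH and 1.11 FPKM in CONTROL-TIA. In culture 5 this isoform had 3.26 FPKM.

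In OGD-TIA against OGD-VEH limma also called 0 of the 10 and 0% of 16351 genes (at an unadjusted p under 0.05, 0 of the 10 and 7.91% of all). The log2 difference was -1.14 for *Cryab* (interval -2.35 to 0.07), -1.09 for *Hspb1* (-2.31 to 0.13), -0.71 for *Bag3* (-1.90 to 0.49) and -0.70 for *Hspb8* (-2.06 to 0.67). All 4 intervals include 0 and also a lowering of more than 2 on the log2 scale for *Cryab*, *Hspb1* and *Hspb8*. *Hspa1a* differed by 0.56 (-0.03 to 1.16). For these 5 genes limma padj was 0.550 to 0.603. None of the 10 was without overlap, beside 3.8% of all genes. Between these same groups, neuron markers had a median log2 difference of 0.51, astrocyte markers of -0.41 and oligodendrocyte lineage markers of -0.66, with none called, and their part in the differences of the 10 genes was not tested.

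Whether OGD acted differently with and without TIA was tested by the interaction over 16 cultures. It was -1.73 for *Cryab* (SE 0.64, interval -3.10 to -0.35, limma padj = 0.722), -1.31 for *Hspb1*, -0.89 for *Hspb8* and -0.88 for *Bag3*. None of the 10 was called, nor any of 16313 genes (0%). At an unadjusted p under 0.05 the counts were 1 of the 10, *Cryab*, and 6.06% of all genes. The retained-intron isoform in the *Cryab* sum had means of 0.0688 FPKM in CONTROL-VEH, 1.11 in CONTROL-TIA, 2.51 in OGD-VEH and 0.835 in OGD-TIA. The interaction of the sum is therefore not that of the coding isoforms alone. For *Hsph1* the interaction was 0.01 with an interval of -0.28 to 0.29. When cultures were weighted by their estimated quality, *Cryab* was called in the interaction (-2.18, limma padj = 0.0499), as were 0.619% of all genes. With these weights it was also called in OGD-TIA against OGD-VEH (-1.53, limma padj = 0.0463), beside 2.5% of all genes.

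Over both drug arms, 8 OGD cultures were set against 8 controls, which are the cultures of the comparisons above. *Hspb1* (log2 fold change 2.12, limma padj = 0.00298), *Bag3* (1.27, padj = 0.00828) and *Hspb8* (1.198, padj = 0.0173) were called, 3 of 10 against 4.78% of 16313 genes in either direction, 2.8% up and 1.99% down. At an unadjusted p under 0.05, 5 of the 10 were above 0 and 3 below, beside 44.2% of all genes. *Cryab*, at 1.02, missed the threshold with limma padj = 0.0509. *Hsph1* (-0.44, padj = 0.00123), *Hspa1a* (-0.64, padj = 0.0275) and *Hsp90aa1* (-0.28, padj = 0.0227) were past the threshold on limma padj and under that on fold. A 416-base isoform made up 36% of the *Hsph1* sum. Its means were 120 FPKM in CONTROL-VEH, 105 in CONTROL-TIA, 69.8 in OGD-VEH and 56.3 in OGD-TIA. In this fit all 12 neuron markers were below 0 at an unadjusted p under 0.05, with 2 called down, and 3 of 7 oligodendrocyte lineage, 2 of 6 progenitor and 1 of 8 astrocyte markers were called up. The part of these markers in the result was not tested. The count of called genes was 2 without OGD-VEH 12 or without OGD-TIA 16, in both cases because the log2 fold change of *Hspb8* came to under 1 (0.98 and 0.99).

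By culture, *Hspb1* was above the highest of the 8 controls (0.712 FPKM) in 8 of 8 OGD cultures, beside 3.22% of all genes, and *Hsph1* below the lowest of them (247 FPKM) in 8 of 8, beside 2.42%. With isoforms weighted by length, *Hspb1* was above all controls in 8 OGD cultures and *Hsph1* below them in 5. Without that weighting, *Bag3* was above all controls in 6 OGD cultures, *Hspb8* and *Dnajb1* in 5 and *Cryab* in 4. *Hsp90aa1* was below all controls in 6. With the weighting, *Hspb8* was above all controls in 4, and the counts of *Bag3*, *Dnajb1*, *Cryab* and *Hsp90aa1* were the same. The share of all genes at such partial counts was not computed. Among the 8 OGD cultures, culture 12 was first for *Hspb1*, *Hspb8*, *Cryab* and *Bag3*. Culture 16 was second for *Hspb8*, *Cryab* and *Bag3*, and came after cultures 12 and 10 for *Hspb1*. For *Hsp90aa1* cultures 16 and 12 were the lowest of the 8, and for *Hspa1b* culture 12 was.

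**Figure D3:**
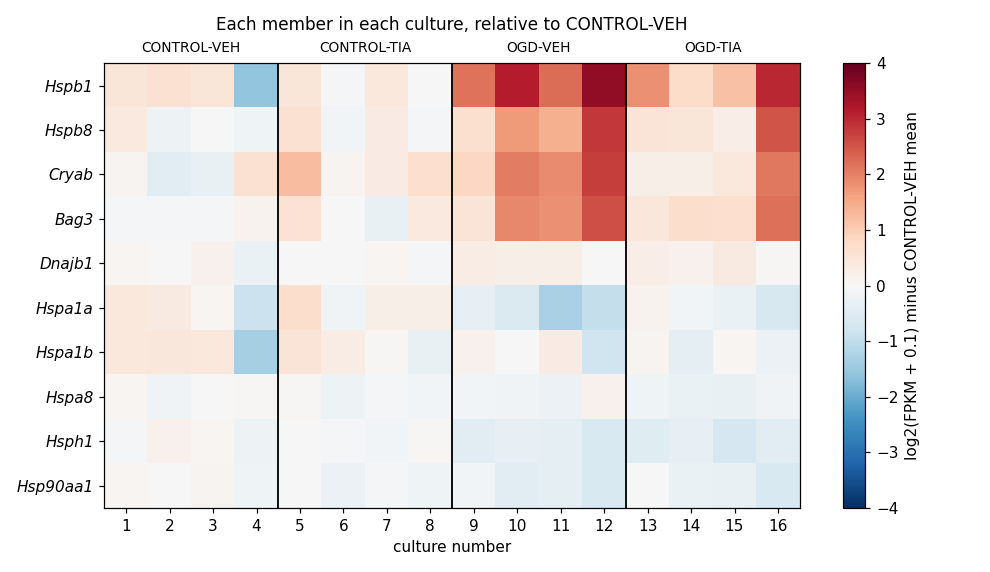
Log2(FPKM + 0.1) of each gene (rows) in each of the 16 cultures (columns, grouped by condition) minus the mean of CONTROL-VEH; red is higher and blue lower. The upper 4 rows are reddest in OGD-VEH cultures 10 to 12 and in OGD-TIA culture 16, and CONTROL-VEH culture 4 is low for *Hspb1*, *Hspa1a* and *Hspa1b*.

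CONTROL-VEH culture 4 stood apart among controls, with an astrocyte marker sum of 1614 FPKM against at most 899.5 FPKM in the other 7 sham cultures. It was also the lowest of its group for *Hspa1a*, *Hspa1b*, *Hspb1*, *Hsph1*, *Hsp90aa1* and *Dnajb1*, and the highest for *Cryab* and *Bag3*. Without it, the log2 fold change of *Hspa1b* in OGD-VEH against CONTROL-VEH was -0.52 (limma padj = 0.215) and that of *Hspa1a* -1.08 (limma padj = 0.0701).

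Of 84 other chaperone and heat shock genes in 9 lists, 77 were tested in OGD-VEH against CONTROL-VEH, and 1 was called up and 0 down. Over all genes tested, 2.4% were called up and 1.68% down. At an unadjusted p under 0.05, 15 were above 0 and 9 below, beside 35% of all genes in either direction. Their median log2 fold change was 0.08, beside 0.10 over all genes. The called gene was *Hspb6*, which encodes the small heat shock protein HSP20. The CONTROL-VEH cultures had 3.61, 3.47, 4.09 and 4.34 FPKM and the OGD-VEH cultures 6.00, 8.02, 7.52 and 14.1 FPKM, with a log2 fold change of 1.11 (limma padj = 0.0422). This call too was kept only without OGD-VEH 9 when cultures were left out in turn, with padj up to 0.114 and log2 fold changes of 0.87 to 1.27. Of the 7 other small heat shock genes only 3 were expressed enough to test, and *Hspb3* was lowest at -0.54 (limma padj = 0.426).

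None of the remaining 8 lists held a called gene in that comparison. All 8 subunits of the cytosolic chaperonin, the ring that folds actin and tubulin, lay between 0.21 (*Cct7*) and 0.37 (*Cct3*) with none called. Mitochondrial chaperones ran from -0.36 for *Clpb*, a disaggregase, to 0.64 for *Hspe1*, the HSP10 lid of the HSP60 ring, whose limma padj of 0.0336 came without the fold needed. In the endoplasmic reticulum, *Serpinh1*, the collagen chaperone HSP47, had 1.26 (limma padj = 0.220) and *Pdia3* -0.18.

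Among J-domain proteins, *Dnajc6*, the neuronal auxilin that recruits HSC70 to clathrin coats, was lowest at -1.78 (limma padj = 0.0569) and *Dnajb12* highest at 0.39. Other HSP70 genes ran from -1.09 for *Hspa12a* to 0.45 for *Hspa14*, and BAG and exchange factors from -1.03 for *Bag4* to 0.20 for *Bag6*. HSP90 partners ran from -0.24 for *Fkbp5* to 0.40 for *Ptges3*, the co-chaperone p23. Of the heat shock factors and their regulators, 4 of 5 were tested, and these lay between -0.30 (*Hsf2bp*) and 0.25 (*Hsf2*). *Hsf2bp* was near the filter, with a mean of 0.791 FPKM and an SE of 0.97. At an unadjusted p under 0.05, 1 of the 4 was below 0 and 0 above, beside 35% of all genes in either direction. Over both drug arms, *Serpinh1* was called up (1.51, limma padj = 0.0239, but 0.0501 without OGD-TIA 16) and *Dnajc6* down (-1.36, limma padj = 0.0117), and *Hspb6* was not called (0.83). Over all genes, 2.8% were called up and 1.99% down in that fit. In the other 4 comparisons limma called 0 of the 76 or 77 tested and 0% of all genes. At an unadjusted p under 0.05 there were 4 to 15 of them, beside 3.84% to 19.5% of all genes.

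**Figure D4:**
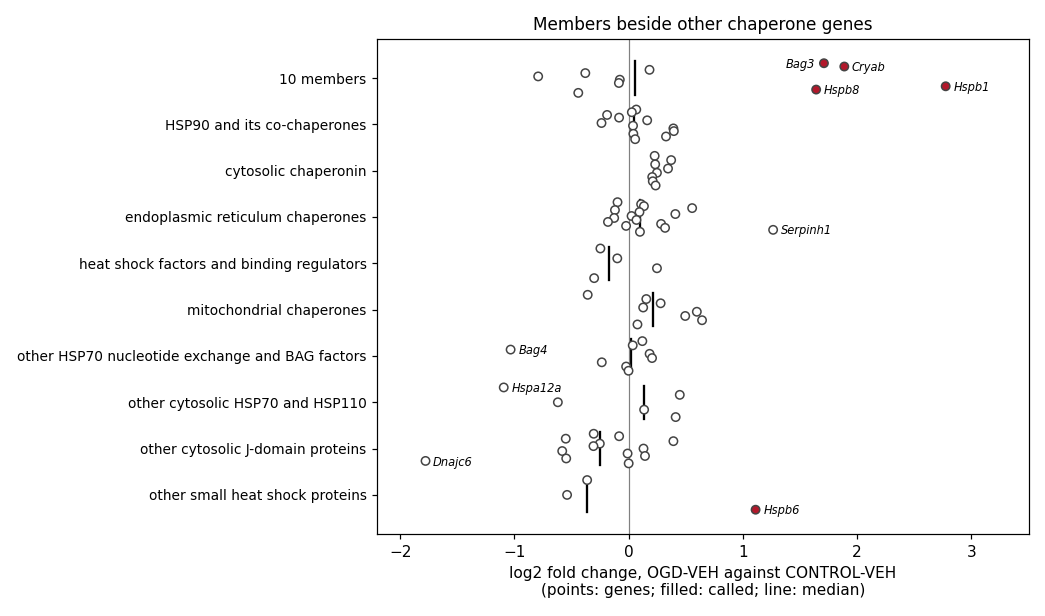
Log2 fold change in OGD-VEH against CONTROL-VEH (x axis) of the 10 genes (top row) and of the other chaperone lists (rows); points are genes, filled points were called and black lines are medians. The filled points are *Hspb1*, *Cryab*, *Bag3* and *Hspb8* in the top row and *Hspb6* among other small heat shock proteins.

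The genes whose pattern over the 16 cultures was most like the mean standardised profile of the 10 were *Fip1l1* (Pearson r = 0.907), *Psmc5* (r = 0.901) and *Usf2* (r = 0.873). In this mean, genes that rose and genes that were lower after OGD offset each other, and these 3 genes were lowest in CONTROL-VEH culture 4, with 49.2 FPKM for *Fip1l1*, 65.9 FPKM for *Psmc5* and 128 FPKM for *Usf2*. The points share libraries and scaling, so the correlations are descriptions.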

How the data were processed

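RNA of 16 mouse primary cortical neuron cultures was sequenced as stranded mRNA libraries with 50-base single-end reads. The authors' provider mapped reads with STAR to GRCm38 (Ensembl release 92) and estimated isoforms with eXpress, and the deposited unit is FPKM of each isoform, read as TMM-scaled. Read counts were not analysed here, so depth was estimated from the FPKM of 1 read over 17592 single-isoform genes. Of 135276 lines, 74 without identifier were left out. Positions come from GENCODE M21 (99.89% of isoforms found), promoter sequences from RefSeq (GRCm38.p6).

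Isoform FPKM were summed per symbol and tested as log2(FPKM + 0.1), so fold changes of low genes are understated. A mean of 0.5 FPKM or more over the cultures fitted was required for testing with limma 3.58.1 in R 4.3.3 (trend, Benjamini-Hochberg over all genes). The fit was first tried on simulated data, with the CONTROL-VEH spread of each gene in both groups. That trial does not cover a wider spread after OGD, such as that of *Bag3*. Thresholds are the study's, whose own test models counts and called more genes in both OGD comparisons. The 4 pairwise comparisons used 8 cultures each, and the pooled effect (drug as a term) and interaction used 16. P-values set the group differences against the spread between these cultures, taken as independent, which the labels do not settle. Exact permutation tests were two-sided. Other steps used Python 3.11.15 (pandas 2.3.3, numpy 2.4.6, scipy 1.17.1, with figures by matplotlib 3.10.9).

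The 10 genes, chaperone lists, markers and motifs were chosen with earlier results of these data known. Outside the 10, named genes are those with the highest and lowest fold change of each list in OGD-VEH against CONTROL-VEH, every list gene called in a comparison, markers, and the 3 most similar genes. *Hsp25-ps1*, *Gm12346* and *Gm15459* were named for sharing the most 50-base words with a member. Alternatives were a pseudocount of 1 or 0.01, no filter or a mean of 2 FPKM, robust empirical Bayes, array quality weights, median-ratio scaling, length-weighted or protein-coding isoforms, the *Hspa1a* and *Hspa1b* sum, all 16 cultures in a single fit, and leaving out each culture.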

Additional observations from a re-analysis of the deposited data

Results flagged for a closer look

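In each gene and group, the highest and lowest of the 4 cultures were compared with the rest by Dixon's ratio at its 95% limit, over 40 groups in all. Of these groups, 6 held a culture past it, where chance gives about 1 in 20, and the 6 came from 2 cultures. OGD-TIA culture 16 was the highest of its group for *Hspb8* (20.2 FPKM, others at most 4.99), *Cryab* (9.94 FPKM, others at most 2.99) and *Bag3* (4.24 FPKM, others at most 1.41). It also had the lowest neuron marker sum of its group, 1782 FPKM. CONTROL-VEH culture 4 was the lowest of its group for *Hspa1b* (2.19 FPKM, others at least 7.61) and *Hspb1* (0.078 FPKM, others at least 0.637), and the highest for *Bag3* (0.928 FPKM, others at most 0.813). It had the highest astrocyte marker sum of the sham cultures, 1614 FPKM. Both are the last-numbered cultures of their groups, and in every group the last-numbered culture had the highest astrocyte marker sum. Why cultures 4 and 16 differ from their groups, and whether they share a preparation, was not tested.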

How the results depend on the processing

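No paired analysis was made, because the cultures are numbered 1 to 16 across the groups and the labels give no pairing. In each group the last-numbered culture (4, 8, 12 and 16) had the highest astrocyte marker sum, at 1614, 873.5, 2532 and 1934 FPKM. The first-numbered culture (1, 5, 9 and 13) had the highest *Hspa1a* of its group. Whether cultures at the same position share a preparation was not tested, and no fit took it into account. In OGD-VEH against CONTROL-VEH, 4 of the 10 genes were called as reported and 0 without a filter on low values, where padj of the same genes was 0.0739 to 0.0932 over 32532 genes. Robust empirical Bayes gave 3, with *Hspb8* just above the padj threshold, and array quality weights added *Hspa1a* (-1.11, padj = 0.0141). Leaving out each culture gave 0 to 4, with 4 only without OGD-VEH 9. With array quality weights 1 gene, *Cryab*, was called in OGD-TIA against OGD-VEH and 1, again *Cryab*, in the interaction, where all-gene calls went from 0 to 146 up and 262 down and from 0 to 43 up and 58 down. Leaving out cultures over both drug arms gave 2 to 4. There *Cryab* was called without OGD-VEH 9, CONTROL-TIA 5 or OGD-TIA 13, 14 or 15, with a minimum mean of 2 FPKM (padj = 0.0479) and over coding isoforms (1.054, padj = 0.00984). *Bag3* (0.84) fell under the fold threshold with a pseudocount of 1, and *Hspb8* (0.86) with array quality weights. A minimum mean of 2 FPKM leaves out members whose mean is lower. Over all genes, the calls in OGD-VEH against CONTROL-VEH were 393 up and 275 down as reported, 26 and 10 without a filter, 1141 and 788 with array quality weights, and 665 and 455 weighted by isoform length. Median-ratio scaling gave 328 and 314. In OGD-TIA against CONTROL-TIA the all-gene calls were 0 up and 0 down as reported, 49 and 31 with array quality weights, and 28 and 45 weighted by isoform length. The causes were not tested.

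Directions that turned were all of genes not called. With array quality weights these were *Cryab* in OGD-TIA against CONTROL-TIA (-0.13), *Hspa1b* (-0.15), *Hspb1* (-0.14) and *Dnajb1* (-0.0363) in CONTROL-TIA against CONTROL-VEH, and *Hspa8* in the interaction (0.018). Over coding isoforms they were *Hspb8* in CONTROL-TIA against CONTROL-VEH (-0.0014), *Hspa8* in OGD-TIA against OGD-VEH (0.0045), and *Hspa8* (0.16) and *Hsph1* (-0.0643) in the interaction. Weighted by length they were *Hsph1* in CONTROL-TIA against CONTROL-VEH (0.0412) and in the interaction (-0.0428). With median-ratio scaling they were *Hspa1b* (0.0144) and *Hsph1* (0.0126) in OGD-TIA against OGD-VEH and *Hspa8* in the interaction (0.0024). The *Hspa1a* and *Hspa1b* sum gave 0.17 in OGD-TIA against OGD-VEH and -0.0292 in the interaction.

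Leaving out each culture gave ranges through 0, as log2 values, in OGD-VEH against CONTROL-VEH for *Hspa1b* (-0.52 to 0.17) and in OGD-TIA against CONTROL-TIA for *Cryab* (-0.29 to 0.37). In CONTROL-TIA against CONTROL-VEH they were -0.0726 to 0.0763 for *Dnajb1*, -0.032 to 0.40 for *Hspa1a*, -0.29 to 0.30 for *Hspa1b*, -0.31 to 0.38 for *Hspb1*, which missed the filter without CONTROL-VEH 2, and -0.11 to 0.0145 for *Hsph1*. In OGD-TIA against OGD-VEH they were -0.037 to 0.0846 for *Dnajb1*, -0.0146 to 0.19 for *Hsp90aa1*, -0.28 to 0.10 for *Hspa1b* and -0.0867 to 0.0306 for *Hsph1*. In the interaction they were -0.0527 to 0.10 for *Dnajb1*, -0.43 to 0.26 for *Hspa1b*, -0.095 to 0.0387 for *Hspa8* and -0.0502 to 0.074 for *Hsph1*. Depth limits *Hspb1* most, with about 2 reads in CONTROL-VEH 4.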
